A study of Homo sapiens with 8 samples.

Results

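The genes described here are 45 genes of the extracellular matrix, of cell adhesion and of the mesenchymal state, out of 58051 genes in the count files. They are a fixed list of collagens, laminins and other matrix glycoproteins, integrins and other surface receptors, matrix proteases with their inhibitors, cadherins and transcription factors of the epithelial to mesenchymal transition (EMT), and intermediate filament proteins. Each symbol on the list was matched to its Ensembl identifier, and all 45 were found. Of these, 33 had a mean normalized count above 5 (the BaseMean of DESeq2) and were tested, and 12 lay below that level.

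RNA was sequenced from MDA231 cells, an established line of triple-negative breast cancer cells that grow with a mesenchymal shape, to compare cells with different assembly of succinate dehydrogenase (respiratory complex II). Parental cells were unmodified (n = 2), SDHB KO cells had exon 1 of the iron-sulfur subunit gene SDHB targeted with a TALEN construct and were selected with hygromycin (n = 3), and SDHB KO SDHA low cells (called SDHA low cells from here on) were the same knockout cells carrying in addition an shRNA against the catalytic subunit gene SDHA, and were exposed to puromycin as a further selection (n = 3). At harvest all cells were at 70% confluency in full medium with no treatment. The labels number the samples as biological replicates and do not say whether they were derived separately, so that p-values measure the spread between these samples, which may be technical. Neither the labels nor the methods say whether a subline is a single clone, and the SDHB KO cells sequenced are not labelled as carrying the empty vector that served as the shRNA control. Loss of a subunit, selection and differences between sublines therefore cannot be told apart.

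Epithelial cells hold on to each other through cadherins and keratin filaments, whereas mesenchymal cells rest on integrins that grip collagen, laminin and fibronectin and are linked inside the cell to actin and vimentin. Secreted and membrane-bound proteases cut this matrix, tissue inhibitors (TIMPs) restrain them, and the urokinase receptor keeps plasminogen activation at the cell surface. Collagen chains are hydroxylated, glycosylated and folded in the endoplasmic reticulum before they are secreted.

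Libraries covered the 3' ends of polyadenylated RNA, and each sample had from 773042 to 1427141 counts on genes. At these totals 3 counts correspond to between 2.24 and 4.10 CPM (counts per 1000000, scaled by TMM), a floor that covers counting error only. The 45 genes took between 0.789% and 0.969% of all counts. SDHA low replicate 2 had the highest total. Its chi-squared per degree of freedom against both other samples of its group was 9.22 and 9.95 (2.97 between those). This value on raw counts also grows with the total where the spread exceeds counting error, and that part was not tested. Results that rest on SDHA low replicate 2 are also given without it. SDHA was at 74.0 and 91.6 CPM in parental cells, at 148, 135 and 151 CPM in SDHB KO cells and at 8.45, 12.7 and 17.8 CPM in SDHA low cells. It was lower in the last group than in SDHB KO cells by a log2 fold change of -3.46 (SE 0.28, adjusted p = 1.16e-07, edgeR quasi-likelihood test). SDHB had 0 to 4 counts in every sample, and since the targeted exon lies at the other end of the gene, these 3' counts do not check the knockout.

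Markers of the mesenchymal state were a list of 6 genes chosen as present in this line (VIM, CD44, AXL, FN1, SPARC and CAV1). That all 6 were counted is therefore no test of its mesenchymal character. Their summed counts lay between 2376 and 4416 per sample, mostly from AXL and VIM. Of mesenchymal genes left off this list, CDH2, TWIST1 and TWIST2 had 0 counts in all samples, SNAI2 0 to 2 and ZEB1 0 to 10. Of 8 luminal or epithelial markers, ESR1 and PGR were at 0 in all samples, and the list summed to between 99 and 213 counts, to which KRT19 and GATA3 gave the most. The epithelial keratins KRT18 (788 to 1682 counts per sample), KRT7 (500 to 1281) and KRT8 (122 to 206) are not on that list. Of 7 fibroblast markers 5 were at 0 everywhere (sums of 1 to 7 counts), as were 3 of 4 leukocyte markers (0 to 6) and 2 of 3 endothelial markers (0 to 2). In bulk RNA, fewer cells expressing a gene and less RNA per cell cannot be told apart.

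Calls among the 33 tested genes are given beside the share of all genes tested. SDHB KO and parental cells differed at an adjusted p below 0.1 in 1 of the 33 tested genes (3.03%), beside 5.54% of all 7550 genes tested. The called gene was CRTAP, which was lower in SDHB KO cells, as were 2.4% of all genes, with 3.14% higher. Between SDHA low and SDHB KO cells 2 of 33 were called (6.06%), CRTAP higher and KRT81 lower, beside 1.51% of all genes (0.318% higher and 1.19% lower). Between SDHA low and parental cells none was called by edgeR or by DESeq2, beside 0.914% of all genes (0.225% higher and 0.689% lower). At an unadjusted p below 0.05, 6, 11 and 6 of the 33 genes passed in these 3 comparisons (18.2%, 33.3% and 18.2%), beside 17.5%, 12.1% and 12.3% of all genes. The first 2 comparisons share the SDHB KO samples, so a gene that lies apart in those samples moves in both.

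The median log2 fold change of the 33 genes between SDHB KO and parental cells was 0.06, that between SDHA low and SDHB KO cells -0.09 and that between SDHA low and parental cells -0.26. Over all genes tested these medians were -0.00, 0.01 and 0.02. In SDHB KO against parental cells 17 of the genes had a positive and 16 a negative log2 fold change, and in either comparison of SDHA low cells 12 were positive and 21 negative. The 95% interval of the log2 fold change lay between -1 and 1 for 15, 16 and 14 of the 33 genes, and for the others it reached a difference of 2-fold or more. The smallest log2 fold change that was called over all genes was 0.62, 0.66 and 0.75 in size.

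**Figure D1:**
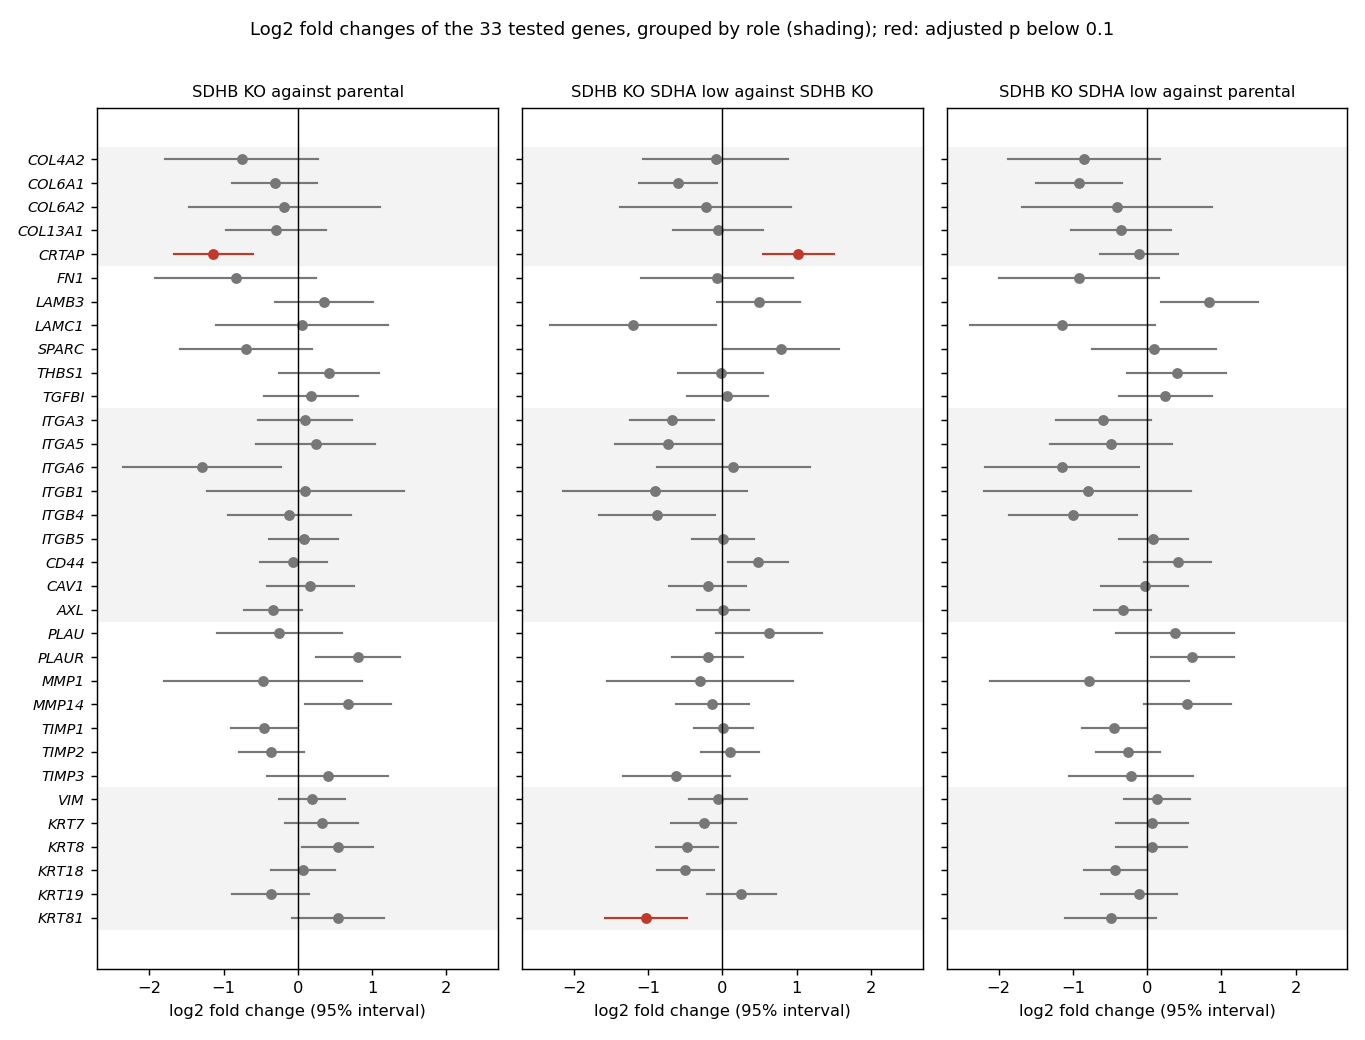
Log2 fold changes of the 33 tested genes (points) with 95% intervals (bars) in the 3 comparisons, ordered by role, with red points for genes called at an adjusted p below 0.1. CRTAP is the called gene at -1.14 and 1.02 in the first and the middle comparison and KRT81 at -1.03 in the middle one, and the intervals of most other genes cross 0.

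Samples of SDHB KO cells lay entirely above parental cells for 4 of the 33 genes (12.1%; PLAUR, MMP14, KRT8 and KRT81) and entirely below for 8 (24.2%; CRTAP, SPARC, ITGA6, AXL, PLAU, MMP1, TIMP1 and TIMP2), where 19.3% and 18.6% of all genes did so. Samples of SDHA low cells lay above SDHB KO cells for 3 genes (9.09%; CRTAP, SPARC and CD44) and below for 8 (24.2%; COL6A1, LAMC1, ITGA3, ITGB1, ITGB4, KRT8, KRT18 and KRT81), beside 8.7% and 8.69% of all genes. Against parental cells they lay above for 5 (15.2%; LAMB3, THBS1, CD44, PLAUR and MMP14) and below for 10 (30.3%; COL4A2, COL6A1, LAMC1, ITGA3, ITGA6, ITGB4, AXL, MMP1, TIMP1 and KRT18), beside 15.2% and 15.5%. These genes are named after their values were seen, and most of them were not called.

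Among the collagens and their processing, CRTAP (ENSG00000170275, GRCh38 chr3:33114014-33147773, plus strand) encodes cartilage-associated protein, a partner of prolyl 3-hydroxylase 1 and cyclophilin B in the complex that modifies proline in fibrillar collagen chains. CRTAP was at 585 and 588 CPM in parental cells, at 242, 279 and 278 CPM in SDHB KO cells and at 355, 791 and 477 CPM in SDHA low cells. The SDHB KO samples lay below every sample of both other groups, and the SDHA low samples spanned the parental level. Means were 587 ± 1.89 (SD, n = 2), 267 ± 21.1 (SD, n = 3) and 541 ± 225 (SD, n = 3). CRTAP fell in SDHB KO against parental cells by 1.14 on the log2 scale (SE 0.26, 95% interval -1.67 to -0.61, adjusted p = 0.0222, edgeR). It rose in SDHA low against SDHB KO cells by 1.02 (SE 0.23, 95% interval 0.54 to 1.51, adjusted p = 0.0342), and the difference of SDHA low from parental cells was -0.11 (95% interval -0.64 to 0.42, adjusted p = 0.897).

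The size of the rise of CRTAP rested on SDHA low replicate 2. Without that sample it was 0.62 (adjusted p = 0.0634). The fall kept a log2 fold change between -1.17 and -1.07 when single samples were left out, but the call was lost without parental replicate 1 (adjusted p = 0.307), parental replicate 2 (0.162) or SDHB KO replicate 1 (0.135). The call of the rise was lost without SDHB KO replicate 1 (0.212) or 3 (0.15). CRTAP overlaps a gene on the opposite strand, ENSG00000272149.

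**Figure D2:**
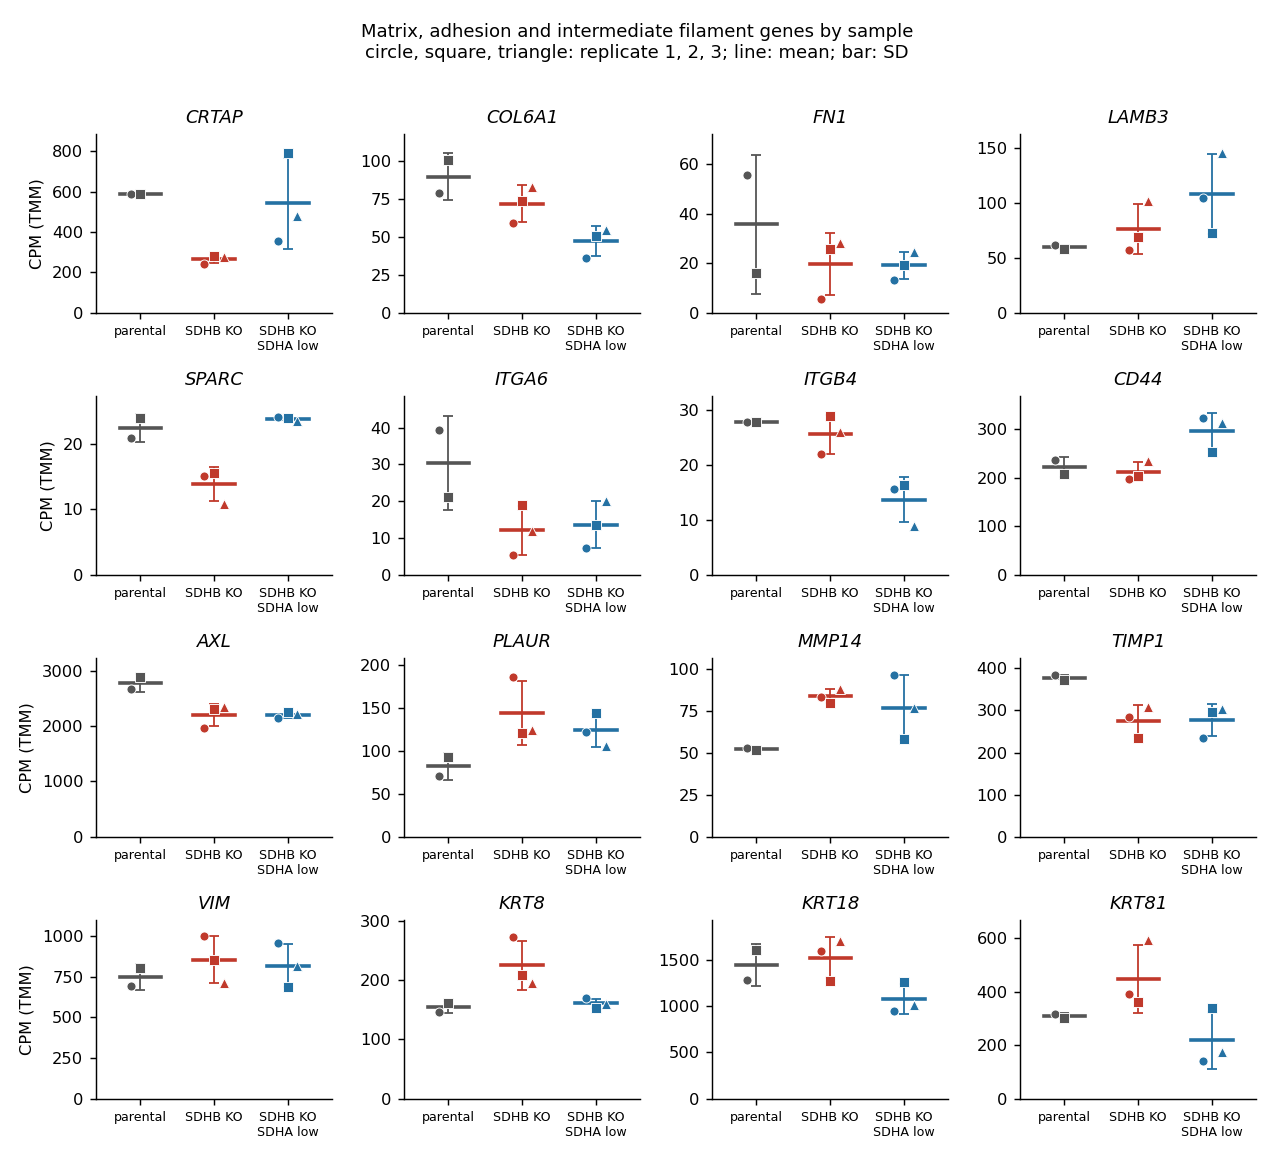
CPM (TMM) of selected genes in each of the 8 samples, with 1 symbol per replicate, a line at the group mean and a bar for the SD. CRTAP is low in the 3 SDHB KO samples (242 to 279 CPM) and scattered from 355 to 791 CPM in SDHA low cells, while PLAUR and MMP14 lie lower in the parental samples than in either other group.

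The region around the CRTAP start site is shown because it is the gene that was called in both directions, and that of PLAUR, the protease receptor with the largest difference in its group, for comparison. Both run from 250 bases before to 50 bases after the start, from RefSeq on GRCh38.p14, with CRTAP at chr3:33113764-33114063 (plus strand) and PLAUR at chr19:43670120-43670419 (minus strand). Capitals mark a match to TGANTCA, the letters bound by AP-1 factors, read on both strands.
CRTAP: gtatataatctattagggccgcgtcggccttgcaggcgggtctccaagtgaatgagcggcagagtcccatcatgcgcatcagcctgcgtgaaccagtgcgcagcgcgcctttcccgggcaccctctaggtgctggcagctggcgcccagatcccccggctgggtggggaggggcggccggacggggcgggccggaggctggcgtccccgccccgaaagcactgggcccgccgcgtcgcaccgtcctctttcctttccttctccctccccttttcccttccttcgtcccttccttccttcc
PLAUR: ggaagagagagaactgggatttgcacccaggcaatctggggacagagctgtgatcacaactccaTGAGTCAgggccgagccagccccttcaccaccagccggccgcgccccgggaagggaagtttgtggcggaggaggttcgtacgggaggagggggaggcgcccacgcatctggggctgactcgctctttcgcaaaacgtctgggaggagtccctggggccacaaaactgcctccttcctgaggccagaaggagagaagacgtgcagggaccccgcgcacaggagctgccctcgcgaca

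The CRTAP window has 27 CpG dinucleotides and a GC content of 67.3%, and none of the 3 motifs searched. The PLAUR window has 18 CpG dinucleotides, a GC content of 64.0% and 1 match, at position 65 from its first base. Of the 45 genes, 32 matched an entry, with 51 promoters in all, and KRT81 had none. TGANTCA was in 4 of the 51 (7.84%; CDH2, ITGA5, LAMB3 and PLAUR), beside 7.71% of all 35116 promoters. GGAATG, the letters bound by TEAD factors, was in 7 (13.7%) beside 14.0%, and CACCTG, an E-box bound by the EMT factors SNAI2 and ZEB1, in 7 (13.7%) beside 20.6%. A match describes the letters only.

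Of the 6 true collagens on the list, 4 were tested and none was called. COL6A1, a chain of the beaded microfibrils of collagen VI, was at 78.7 and 101 CPM in parental cells, at 58.8, 73.4 and 83.1 CPM in SDHB KO cells and at 36.2, 50.7 and 54.6 CPM in SDHA low cells. The last group lay below all 5 other samples, with a log2 fold change against parental cells of -0.92 (SE 0.28, adjusted p = 0.154). COL4A2 (basement membrane), COL6A2 and COL13A1 (a transmembrane collagen) had log2 fold changes of -0.76, -0.18 and -0.30 in SDHB KO against parental cells, with adjusted p from 0.46 to 0.921. COL4A1 and COL5A1 were below the count filter with at most 7 counts in a sample.

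Among the laminins and matrix glycoproteins 6 of 7 were tested and none was called, with a median log2 fold change of 0.12 in SDHB KO against parental cells and 0.17 in SDHA low against parental cells. FN1 (fibronectin) had the largest difference of this group between SDHB KO and parental cells. It was at 55.5 and 15.9 CPM in parental cells, 5.47, 25.6 and 28.1 CPM in SDHB KO cells and 13.3, 19.4 and 24.5 CPM in SDHA low cells. The groups overlapped and the parental samples differed more between themselves than the group means did (log2 fold change -0.84, SE 0.52, adjusted p = 0.432).

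LAMB3, the beta chain of the epithelial laminin-332, was at 61.3 and 58.4 CPM in parental cells, at 57.5, 68.9 and 101 CPM in SDHB KO cells and at 105, 73.1 and 146 CPM in SDHA low cells. The last group lay above parental cells with a log2 fold change of 0.84 (SE 0.31, adjusted p = 0.26), and without SDHA low replicate 2 this was 1.06 and was called (adjusted p = 0.059). LAMC1, the gamma chain found in most laminins, was at 6.03, 3.73 and 5.57 CPM in SDHA low cells and at 8.21 to 13.3 CPM in SDHB KO cells (log2 fold change -1.20, SE 0.54, adjusted p = 0.38). SPARC, a collagen-binding glycoprotein, was at 20.8 and 23.9 CPM in parental cells, 15.1, 15.6 and 10.8 CPM in SDHB KO cells and 24.1, 23.9 and 23.4 CPM in SDHA low cells. Like CRTAP it was lowest in all SDHB KO samples, but with few counts, and its log2 fold changes of -0.69 and 0.79 were not called (adjusted p = 0.423 and 0.411). THBS1 and TGFBI, both secreted adhesion proteins, had log2 fold changes between -0.02 and 0.42 in the 3 comparisons, and LAMB1 had at most 4 counts in a sample.

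Of 12 integrins and other membrane proteins 9 were tested and none was called, with medians of 0.08, -0.20 and -0.49 in the 3 comparisons. ITGA6, a laminin-binding integrin chain, had the largest difference of this group between SDHB KO and parental cells. It was at 39.3 and 21.2 CPM in parental cells, at 5.47, 18.9 and 11.9 CPM in SDHB KO cells and at 7.24, 13.4 and 20.1 CPM in SDHA low cells. Both parental samples lay above all 6 others, with a log2 fold change of -1.30 in SDHB KO cells (SE 0.51, 95% interval -2.36 to -0.23, adjusted p = 0.178). ITGB4, its partner in hemidesmosomes, was at 27.8 and 27.9 CPM in parental cells, 21.9, 28.9 and 25.9 CPM in SDHB KO cells and 15.7, 16.4 and 8.91 CPM in SDHA low cells. Here the SDHA low samples were the ones that lay below all others (log2 fold change -0.89 against SDHB KO cells, adjusted p = 0.343, and a 95% interval of -1.86 to -0.14 against parental cells, adjusted p = 0.316).

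The chains ITGA3 and ITGB1 pair as a laminin receptor. Both were also lower in every SDHA low sample than in every SDHB KO sample. Their log2 fold changes were -0.68 (adjusted p = 0.311) and -0.90 (SE 0.60, adjusted p = 0.574). The difference of ITGB1 rests on few reads, with counts of 2, 7 and 5 in SDHA low cells and 5, 9 and 8 in SDHB KO cells. ITGA5, the fibronectin receptor chain, had -0.73 in the same comparison with overlapping samples. ITGB5, a vitronectin receptor chain, had the log2 fold changes nearest to 0 of the integrins, with 0.08 (95% interval -0.39 to 0.55) and 0.01 (95% interval -0.41 to 0.42) in the first 2 comparisons. ITGA2 had at most 7 counts, ITGAV at most 2, and ITGB3 none in any sample.

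AXL, a receptor tyrosine kinase found in mesenchymal carcinoma cells, was at 2666 and 2894 CPM in parental cells, 1973, 2302 and 2343 CPM in SDHB KO cells and 2148, 2257 and 2223 CPM in SDHA low cells. Both parental samples were above the 6 others, and the log2 fold change of -0.33 in SDHB KO cells had a 95% interval of -0.72 to 0.05 (adjusted p = 0.368). CD44, the hyaluronan receptor, was at 323, 254 and 312 CPM in SDHA low cells and between 198 and 237 CPM in all other samples. That difference was 0.48 against SDHB KO cells (SE 0.19, adjusted p = 0.308). CAV1, the coat protein of caveolae, overlapped between all groups, with log2 fold changes from -0.20 to 0.17.

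All 7 proteases, inhibitors and the protease receptor were tested and none was called. PLAUR, the urokinase receptor, was at 70.6 and 92.9 CPM in parental cells, 186, 120 and 124 CPM in SDHB KO cells and 122, 144 and 106 CPM in SDHA low cells. Both parental samples lay below the 6 others. The log2 fold change in SDHB KO cells was 0.81 (SE 0.27, 95% interval 0.25 to 1.37, adjusted p = 0.109), and it passed the threshold with DESeq2 (0.82, adjusted p = 0.0827), in a fit of these 2 groups alone (adjusted p = 0.0535) and without SDHB KO replicate 2 (0.92, adjusted p = 0.0972) or SDHA low replicate 2 (adjusted p = 0.0357). PLAU, which encodes its ligand urokinase, had a mean of 26.5 ± 1.80 CPM in parental cells (SD, n = 2) and of 22.3 ± 2.03 CPM in SDHB KO cells (SD, n = 3) (log2 fold change -0.25, adjusted p = 0.812).

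MMP14, a membrane-anchored collagenase, was at 53.2 and 51.8 CPM in parental cells, 83.5, 80.0 and 88.5 CPM in SDHB KO cells and 96.5, 58.2 and 76.9 CPM in SDHA low cells. As with PLAUR, the parental samples were the lowest, and the log2 fold change of 0.68 was not called (SE 0.28, adjusted p = 0.205). TIMP1, an inhibitor of matrix metalloproteases, was at 383 and 373 CPM in parental cells and between 234 and 309 CPM in the 6 others (log2 fold change in SDHB KO cells -0.45, adjusted p = 0.271). TIMP2, which also binds MMP14 at the cell surface, had -0.36 (adjusted p = 0.394). The secreted collagenase MMP1 and the matrix-bound inhibitor TIMP3 had log2 fold changes of -0.47 and 0.40 in that comparison.

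None of the 6 cadherins and EMT factors was tested. CDH2 (N-cadherin), TWIST1 and TWIST2 had 0 counts in all 8 samples, a count that allows up to 2.24 to 4.10 CPM per sample. CDH1 (E-cadherin) had 0 to 2 counts and SNAI2 (Slug) 0 to 2. ZEB1, a repressor of CDH1, had 10 counts in parental replicate 1, 0 in parental replicate 2, and 0 to 6 in the other samples. A switch between these cadherins, or a change in these EMT factors, was therefore not measurable in these libraries.

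Reads lie at the 3' ends of transcripts, and the base composition there is given for the tested and the untested genes. Over the last 300 bases of the canonical transcript, the 12 genes below the filter had a median GC content of 31.8% (25.7% to 51.3%), and the 33 tested ones 43.3% (29.3% to 72.7%). Over protein-coding genes the medians were 39.0% below the filter and 42.7% above it, and in 4 bins from lowest to highest GC 25.8%, 36.9%, 41.0% and 42.8% of genes were tested. The part of base composition in the low counts was not tested.

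**Figure D3:**
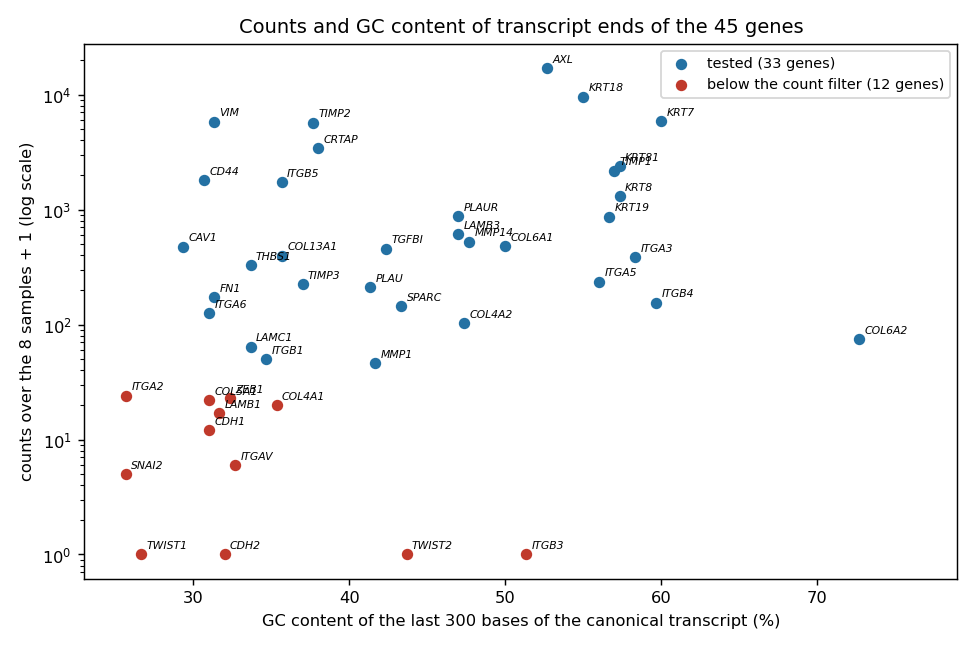
GC content of the last 300 bases of the canonical transcript (percent, x axis) against the counts summed over the 8 samples plus 1 (y axis, log scale) for each of the 45 genes, tested ones in blue and untested ones in red. The untested genes lie mostly at low GC, with a median of 31.8% beside 43.3% for the tested ones.

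All 6 intermediate filament genes were tested. VIM (vimentin), the filament protein of mesenchymal cells, was at 691 and 806 CPM in parental cells, 999, 849 and 712 CPM in SDHB KO cells and 953, 685 and 816 CPM in SDHA low cells. The 3 groups overlapped, and the log2 fold change in SDHB KO cells was 0.19 (95% interval -0.26 to 0.63, adjusted p = 0.696). The interval leaves out a change of 2-fold in either direction.

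KRT81 (ENSG00000205426, GRCh38 chr12:52285913-52291534, minus strand), a type II keratin of hair, was at 316 and 301 CPM in parental cells, 390, 360 and 594 CPM in SDHB KO cells and 140, 339 and 174 CPM in SDHA low cells. Every SDHA low sample was below every SDHB KO sample, although replicate 2 was close to them and above the parental pair. Means were 309 ± 10.3 (SD, n = 2), 448 ± 127 (SD, n = 3) and 218 ± 107 (SD, n = 3). KRT81 fell in SDHA low against SDHB KO cells by 1.03 on the log2 scale (SE 0.27, 95% interval -1.58 to -0.48, adjusted p = 0.075, edgeR). Its log2 fold change from parental cells was 0.54 in SDHB KO cells (adjusted p = 0.36) and -0.49 in SDHA low cells (adjusted p = 0.525).

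The call of KRT81 was lost when either parental sample, SDHB KO replicate 1 or 3, or SDHA low replicate 1 or 3 was left out (adjusted p from 0.133 to 0.363). Without SDHA low replicate 2 the log2 fold change was -1.53 (adjusted p = 4.47e-05), and the difference from parental cells was -0.98 and was called (adjusted p = 0.0326). Counts of KRT81 may be uncertain, as the gene overlaps KRT86 on the opposite strand and has close paralogs, but this was not tested. The share of reads that mapped to several places was 16.1%, 14.7% and 14.5% in SDHB KO cells, above the 9.72% to 12.3% of the other samples, and its part in these keratin values was not tested.

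KRT8 and KRT18, the keratin pair of simple epithelia, overlap each other on opposite strands and have many pseudogenes. KRT8 was at 147 and 162 CPM in parental cells, 272, 208 and 194 CPM in SDHB KO cells and 169, 154 and 160 CPM in SDHA low cells. The SDHB KO samples were above all others (log2 fold changes 0.54, adjusted p = 0.216, and -0.48, adjusted p = 0.333). KRT18 was at 951, 1255 and 1014 CPM in SDHA low cells and between 1272 and 1699 CPM in the rest. Its log2 fold change of -0.50 against SDHB KO cells (adjusted p = 0.265) was -0.65 and called without SDHA low replicate 2 (adjusted p = 0.0415). KRT7 and KRT19 overlapped between SDHB KO and parental cells, with log2 fold changes of 0.32 and -0.37. The KRT7 gene overlaps KRT86 on the same strand, and the part of this in its counts was not tested.

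**Figure D4:**
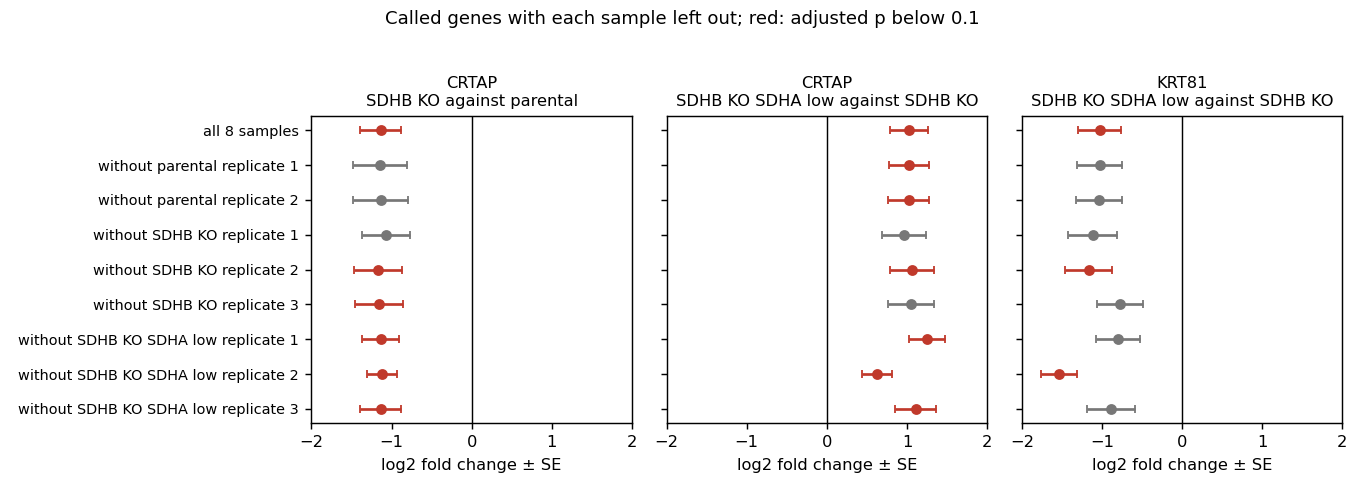
Log2 fold changes (points) with SE (bars) of CRTAP in both comparisons and of KRT81 in 1, from all 8 samples and with each sample left out in turn, in red where the gene was called. The rise of CRTAP in SDHA low against SDHB KO cells runs from 0.62 to 1.25 and the fall of KRT81 from -1.53 to -0.78, with the extremes 0.62 and -1.53 both without SDHA low replicate 2.

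The wider pathways around these genes were described with 6 lists that leave out the 45 genes. Over all genes tested 5.54%, 1.51% and 0.914% were called in the 3 comparisons. Few or no calls are therefore expected in lists of 9 to 20 tested genes. Of 48 other matrix genes 12 were tested. In SDHB KO against parental cells 1 rose and 1 fell, and in SDHA low against SDHB KO cells 1 fell. MFGE8, a secreted glycoprotein that bridges integrins to phosphatidylserine, was at 101 and 88.9 CPM in parental cells, 178, 236 and 216 CPM in SDHB KO cells and 127, 101 and 94.7 CPM in SDHA low cells. It was highest in all SDHB KO samples, and rose by 1.15 (SE 0.25, adjusted p = 0.0159) and fell by 0.97 (SE 0.21, adjusted p = 0.027) in the 2 comparisons. LAMA5, a laminin alpha chain of basement membranes, was at 33.6 and 35.8 CPM in parental cells, 2.74, 17.8 and 7.55 CPM in SDHB KO cells and 4.83, 6.72 and 16.7 CPM in SDHA low cells (log2 fold change in SDHB KO cells -1.84, SE 0.56, adjusted p = 0.0842). With single samples left out this value ran from -1.44 without SDHB KO replicate 1 to -2.66 without SDHB KO replicate 2. It rests on few reads, with counts of 29 and 27 in parental cells and 2, 16 and 7 in SDHB KO cells. The 2.74 CPM of SDHB KO replicate 1 lay below the 4.10 CPM that 3 counts make in that sample.

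Of 26 other genes for collagen processing 18 were tested, and 1 was called in each of the first 2 comparisons. This was COLGALT1, the enzyme that adds galactose to hydroxylysine in collagen. It was at 1100 and 1191 CPM in parental cells, 475, 489 and 449 CPM in SDHB KO cells and 727, 669 and 839 CPM in SDHA low cells. The 3 groups did not overlap, with SDHB KO cells lowest and SDHA low cells in between. COLGALT1 fell by 1.28 (SE 0.19, adjusted p = 0.00267) and rose by 0.66 (SE 0.18, adjusted p = 0.0901). The call of the rise was lost in a fit of these 2 groups alone (adjusted p = 0.178) and without any single sample other than SDHA low replicate 2. P3H1 and PPIB, which encode the partners of CRTAP in the prolyl 3-hydroxylase complex, had log2 fold changes of -0.50 (adjusted p = 0.685) and 0.28 (adjusted p = 0.73) between SDHB KO and parental cells.

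Of 33 other proteases and inhibitors described here 13 were tested, of which 1 rose in SDHB KO against parental cells and 1 rose in SDHA low against SDHB KO cells. ADAM15, a membrane-bound disintegrin protease, was at 213 and 159 CPM in parental cells and at 524, 271 and 422 CPM in SDHB KO cells (log2 fold change 1.12, SE 0.32, adjusted p = 0.0664). MMP3 (stromelysin-1) had counts of 10, 11 and 14 in SDHA low cells and 0, 1 and 3 in SDHB KO cells, a log2 fold change of 2.82 that rests on few reads (SE 0.75, adjusted p = 0.0867).

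Of 35 other genes of integrins and adhesion sites 20 were tested, and FERMT1 (kindlin-1, an integrin activator) was the called one. It was at 88.9, 93.4 and 92.8 CPM in SDHB KO cells, 54.4 and 59.7 CPM in parental cells and 50.7, 38.8 and 56.8 CPM in SDHA low cells, and fell in SDHA low cells by 0.92 (SE 0.24, adjusted p = 0.0763). Of 29 other EMT regulators and genes of the TGF-beta pathway 9 were tested and none was called in any of the 3 comparisons. At the shares over all genes, few or no calls are expected among 9 genes. Of 26 epithelial junction and other keratin genes 11 were tested, with 8 positive and 3 negative log2 fold changes and a median of 0.31 in SDHB KO against parental cells. The split was 7 to 4 (median 0.15) between SDHA low and SDHB KO cells and 8 to 3 (median 0.39) between SDHA low and parental cells. Over all genes tested it was 3766 to 3784, 3856 to 3694 and 3882 to 3668 in these 3 comparisons. Other lists leaned as well. Between SDHA low and parental cells the positive to negative split was 3 to 9 for matrix genes (median -0.40) and 3 to 10 for proteases (-0.17). It was 7 to 11 for collagen processing (-0.16), 10 to 10 for adhesion sites (0.00) and 5 to 4 for EMT regulators (0.13). The comparisons share samples, so their splits are not independent. PKP3, a plakophilin of desmosomes, was the called gene, at 81.0 and 74.3 CPM in parental cells and 263, 179 and 203 CPM in SDHB KO cells (log2 fold change 1.46, SE 0.27, adjusted p = 0.0082). None of the genes of these lists was called in SDHA low against parental cells, beside 0.914% of all genes.

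**Figure D5:**
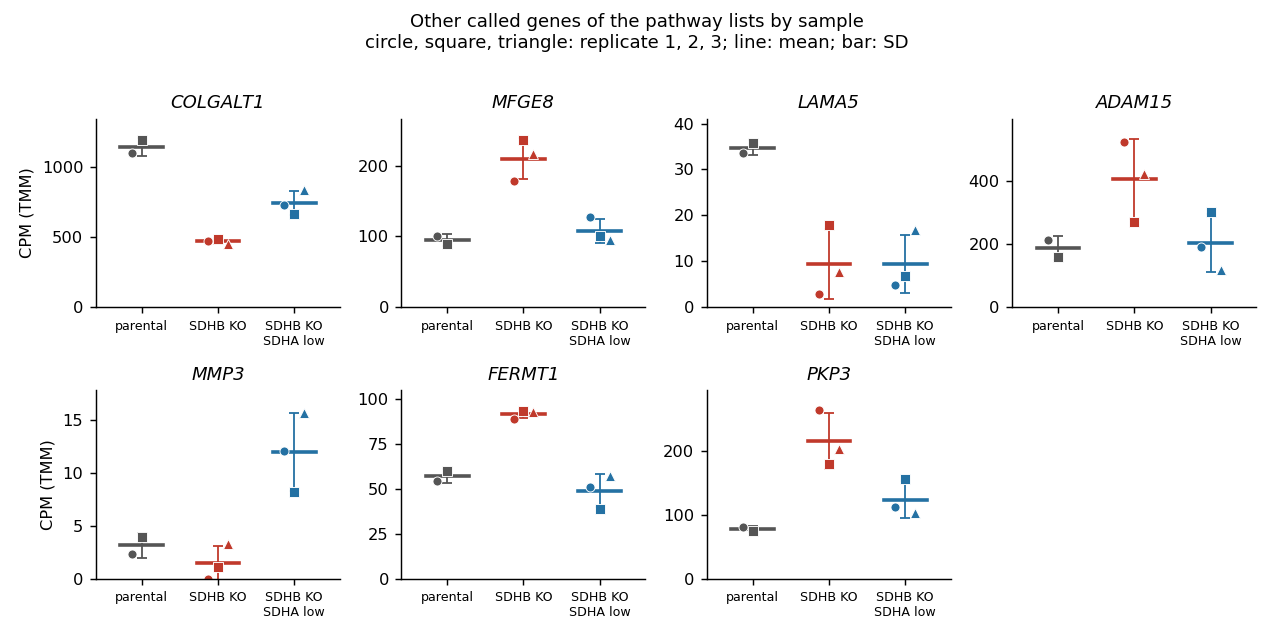
CPM (TMM) in each sample of 7 called genes of the wider pathway lists, with 1 symbol per replicate, a line at the group mean and a bar for the SD. MFGE8 and FERMT1 are highest in the SDHB KO samples, COLGALT1 is lowest there (449 to 489 CPM), and LAMA5 is highest in the parental samples.

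These calls too depended on single samples. Without parental replicate 1, the adjusted p was above the threshold for all 5 of these genes in SDHB KO against parental cells (COLGALT1 0.108, MFGE8 0.294, LAMA5 0.464, ADAM15 0.419 and PKP3 0.279), with the parental group left at 1 sample. Without parental replicate 2 the call was lost for 4 of them (MFGE8 0.197, LAMA5 0.307, ADAM15 0.401 and PKP3 0.122). LAMA5 and ADAM15 were also not called without SDHB KO replicate 1 (adjusted p = 0.248 and 0.259) or 3 (0.217 and 0.158). Their log2 fold changes kept their sign in every such fit.

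Between SDHA low and SDHB KO cells the call of MFGE8 was lost without SDHB KO replicate 2 or 3 or SDHA low replicate 3 (adjusted p from 0.104 to 0.16). That of FERMT1 was lost without any sample other than SDHA low replicate 2 (adjusted p from 0.131 to 0.219), and in the fit of these 2 groups alone (0.128). MMP3 was not called without any of the parental or SDHB KO samples (adjusted p from 0.13 to 0.302) or in the fit of 2 groups (0.128), and it fell below the count filter without any of the SDHA low samples.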

How the data were processed

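RNA of 8 samples was isolated with RNAzol, repurified with LiCl and made into Lexogen QuantSeq 3' mRNA FWD libraries. The authors trimmed reads with Trimmomatic, took out ribosomal and mitochondrial reads with Sortmerna, aligned the rest to GRCh38 (annotation release 87) with STAR 2.5.2b and deposited raw counts per gene. How strand was handled in counting is not given in the sources used here. The deposited normalized counts were not used, since the files of SDHB KO replicates 1 and 3 hold each other's values when set against the raw counts. Summary lines for unmapped, multimapping and unassigned reads were kept out of totals and tests.

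Genes with a BaseMean above 5 (7550 of 58051) were scaled by TMM and tested with the edgeR 4.0.16 quasi-likelihood method in R 4.3.3, with all 8 samples in 1 fit (5 residual degrees of freedom, biological coefficient of variation 21.5%). P-values were adjusted by Benjamini-Hochberg within each comparison and called below 0.1. Gene positions and transcript ends were those of GENCODE release 44, to which 56948 genes matched. The genes, lists and markers were chosen with earlier results of these data known. Genes called in any comparison, the tested gene of largest change in each role in SDHB KO against parental cells, and genes below the filter were named by rule, as were at most 4 called genes per pathway list and comparison. Other genes were named after their values were seen. A gene of the pathway lists is not reported here and is left out of their counts.

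Replicate numbers were not used as pairs in the main fit. Deviations from the group means of the 7 pairs with the same number correlated at -0.27 to 0.09. Those of pairs with different numbers correlated at -0.14 to 0.27. In groups of 2 or 3 samples these deviations are tied to each other, so they cannot show whether samples were paired. Alternatives were DESeq2 1.42.0, its size factors within edgeR, filterByExpr, no filter, a threshold of 0.05, fits of 2 groups, a replicate block and each sample left out. A correction for GC content (lowess, span 0.3) was chosen after seeing the data. The fits were tested on simulated data.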

Additional observations from a re-analysis of the deposited data

Results flagged for a closer look

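The share of multimapping reads, which enters none of the comparisons, was higher in each SDHB KO sample (16.1%, 14.7% and 14.5%) than in parental cells (10.2% and 10.9%), and lay between 9.72% and 12.3% in SDHA low cells. Groups of 2 and 3 samples are too small for a test of single outlying samples.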

How the results depend on the processing

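Of the 45 genes, 1, 2 and 0 were called in SDHB KO against parental, SDHA low against SDHB KO, and SDHA low against parental cells. In the first comparison DESeq2 and the fit of the 2 groups alone called 2 each, and 0 to 2 were called with each sample left out. In the middle comparison 1 was called at an adjusted p below 0.05, in the fit of 2 groups and with the replicate number as a block, and 0 to 3 with a sample left out. In the last, 0 to 2 were called with a sample left out (2 without SDHA low replicate 2). A group left with 1 sample was assumed to vary like the others. Over all genes the 418, 114 and 69 calls became 171, 64 and 13 at 0.05, 777, 64 and 7 in fits of 2 groups, 199, 59 and 12 with the replicate block, and 0 to 846, 39 to 375 and 4 to 173 with a sample left out, and the last became 152 without a filter. The 0 was without parental replicate 1 and the highest counts without SDHA low replicate 2. With the block the call of KRT81 was lost (adjusted p = 0.127), as were those of COLGALT1 (0.241), FERMT1 (0.171) and MMP3 (0.151) in SDHA low against SDHB KO cells, and no other named call changed. The cause was not tested. In the middle comparison the call of MMP3 was also lost with filterByExpr (0.102), those of COLGALT1 (0.125) and FERMT1 (0.105) without a filter, and those of KRT81 (0.131), COLGALT1 (0.178), FERMT1 (0.128) and MMP3 (0.128) in the fit of 2 groups. DESeq2 gave no adjusted p for MMP3 in that comparison or for LAMA5 in the first. DESeq2 size factors and the GC correction kept every named call, and no named call changed sign under any alternative. With between 773042 and 1427141 counts per sample, 12 of the 45 genes were untested.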
